A study of Oryza sativa with 4 samples.

Results

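Small RNA from the roots of rice seedlings given NaCl was compared with small RNA from the roots of seedlings that received none. The plants were Oryza sativa cv. Pokkali, a salt-tolerant rice, raised in hydroponics. On day 9 the treated seedlings were given 1.5% NaCl at the root, the control seedlings stayed without NaCl, and whole roots of both groups were collected 9 h later. One library was made from control root (CR) and 1 from treated root (TR), so each ratio below compares these 2 libraries of the 4 in the study and has no replicate check. As whole roots were used, fewer cells that hold a miRNA and less of it per cell cannot be told apart. The lists hold small RNAs and no mRNA, and the tissue was therefore not checked against marker genes.

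The members of the comparison are all distinct mature sequences listed for either root library, 300 of the 783 listed over the 4 libraries. A sequence with a miRBase family name is called conserved here, and any other is called predicted. There were 33 conserved and 267 predicted sequences in root. CR held 122 of them in 172 hairpin entries, and TR held 224 in 289 entries. Each entry gives a read count and its abundance on the RPM scale, relative to the reads that entered miRNA prediction (6887961 in CR and 12126876 in TR), so 1 read was worth 0.145 RPM (CR) or 0.0825 RPM (TR). The lists keep sequences 20 to 22 nt long, of 2 reads or more, that fold into an accepted hairpin. Absence of a sequence from a list is therefore not a count of 0, and no ratio was formed for such a single sequence. Sums over a list or a family hold the listed reads only, so an unlisted sequence adds nothing to them.

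Plant miRNAs are cut from the stem of a folded precursor by DICER-LIKE1 as a duplex of the miRNA and its partner strand, the miRNA*. The miRNA enters an ARGONAUTE protein, most often AGO1, which favours a U at the 5′ end, and guides cleavage or translational repression of mRNAs with a closely matching site. Many conserved families act on transcription factors, while a smaller group that responds to copper supply acts on copper proteins such as superoxide dismutases and laccases, and several of these families are known to respond to salt.

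The conserved sequences on which the comparison turns are shown first, as deposited (T for U), 5′ to 3′, with the seed (bases 2 to 8) in capitals. Where a family had several sequences, a letter was added in order of reads. The set holds the 4 conserved sequences that met the call rule given below, the sequences related to them, and the more abundant sequences listed for CR alone. It also holds miR528, which met the rule per raw read but not by the deposited RPM.
miR398: tGTGTTCTcaggtcgcccctg
miR171: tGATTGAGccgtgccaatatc
miR479-miR171: tGAGCCGAaccaatatcactc
miR166 A: tCTCGGACcaggcttcattcc
miR166 B: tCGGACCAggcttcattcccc
miR166 C: gGAATGTTgtctggttcaagg
miR156 A: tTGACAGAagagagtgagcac
miR156 B: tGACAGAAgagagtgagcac
miR390: aAGCTCAGgagggatagcgcc
miR397: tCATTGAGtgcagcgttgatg
miR528: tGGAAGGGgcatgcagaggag
A shift of the 5′ end moves the seed. miR166 A and miR166 B share 19 bases with a shift of 2, and miR156 A and miR156 B share 20 bases with a shift of 1.

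The predicted sequences are named as in the study where it named them, and otherwise p1, p2 and so on in order of their highest read count in root. Those listed in both libraries that met the rule under the deposited RPM or per raw read were the following, with the seed in capitals.
osa-miR12477: tTGAGTGCagcgttgatgaacc
p14: tGAGCCGAgccaatatcacttc
p9: cTCGCCGGggctgcgtgccgcc
p2: tCTCGGATcaggcttcattcc
osa-miR12481: tATTATAAgacgttttgact
osa-miR12479: tTAGTTCAcatcaatcttcct
p12: gTATGAGCcccgtggactagcc
p13: gTTGAGATggccgagttggt
p15: tAACATTTgaccgttcgtctta
Of these sequences, 3 resemble conserved ones. Counted from the 5′ end, p2 differs from miR166 A by C8T. Over 21 aligned positions p14 differs from miR479-miR171 by A9G and C21T, and it has the same seed. osa-miR12477 shares 18 bases with miR397, from base 4 of miR397 on.

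The denominator bears on every ratio and is given before them. Of all raw reads, 32.4% entered the prediction in CR and 53.9% in TR. The TR library was therefore 1.76 times as deep as CR in reads used but 1.06 times in raw reads, and a ratio per raw read is 1.67 times the ratio of RPM (0.74 on the log2 scale). The 46 sequences listed in both libraries had a median log2 ratio of TR over CR of -0.32 with the deposited RPM and 0.42 per raw read. Of the 0.74, 0.68 was present against the reads unaligned with NONCODE. Each of the 7 other denominators tried raised every ratio by a common factor, from 1.13 to 1.67, so that a higher call could not be lost under them and a lower call could not be gained. Ratios below are those of the deposited RPM, with an exact conditional (Clopper-Pearson) 95% interval that covers counting error only, since amplified reads are not independent molecules. The ratio per raw read is added where the choice changes a direction or a call.

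A sequence was called higher in TR where its ratio was at least 2, and lower where it was at most 0.5, with an interval excluding 1. By this rule 5 of the 46 shared sequences were called higher (10.9%) and 6 lower (13.0%). Per raw read, 8 were called higher (17.4%) and 0 lower. The conserved sequences contributed 2 higher and 2 lower calls of 24 (8.33% each way), and the predicted sequences 3 higher (13.6%) and 4 lower (18.2%) of 22. The shares in the 2 sets rest on so few calls that they were not read as different. In shoot, 22 of 96 shared sequences were called higher (22.9%) and 7 lower (7.29%) in the treated library.

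**Figure D1:**
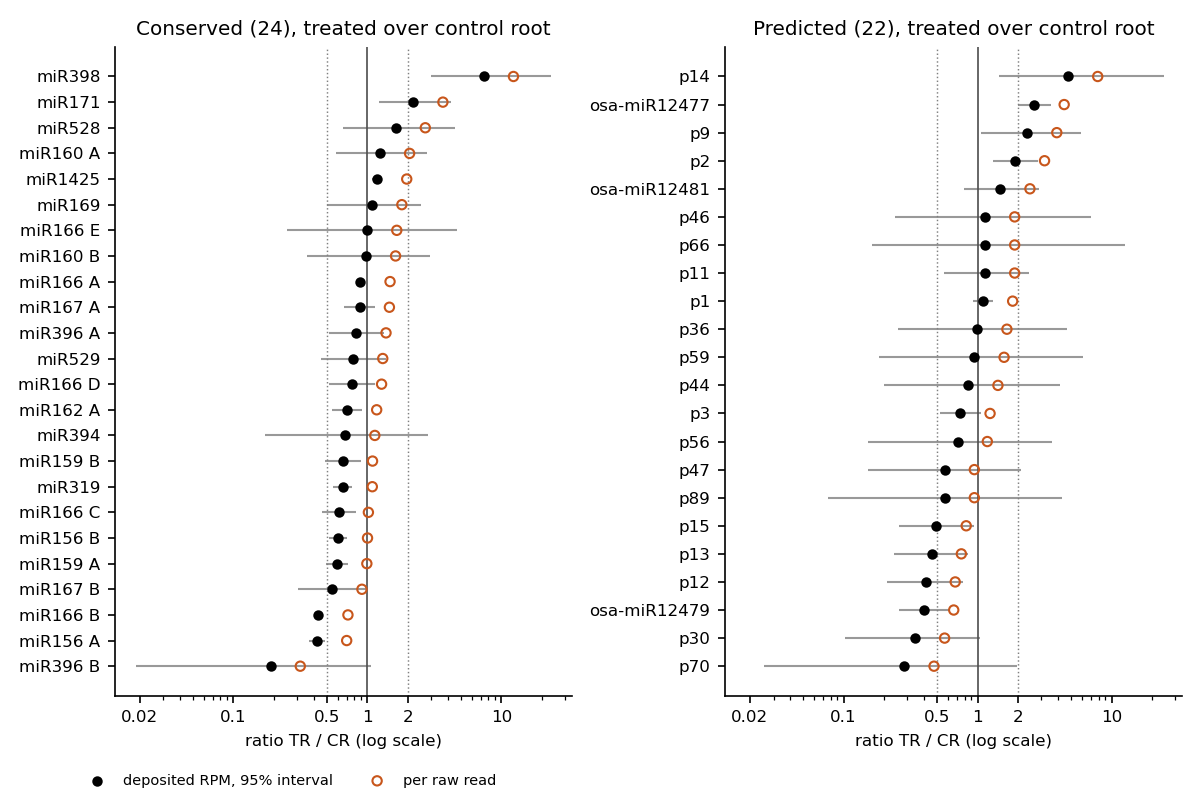
Ratio of TR over CR for the 24 conserved (left) and 22 predicted (right) sequences listed in both root libraries, on a log axis. Filled points with lines are ratios of deposited RPM with 95% counting intervals, open circles are ratios per raw read, the solid line marks 1 and dotted lines mark 0.5 and 2; 18 of 24 conserved filled points lie below 1, whereas 19 of 24 open circles lie above it.

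The copper-related families gave the highest conserved ratio. miR398, which acts on Cu/Zn superoxide dismutase mRNA, had 5 reads in CR (0.726 RPM) against 65 in TR (5.36 RPM). Its level was 7.38-fold higher in TR (3.01 to 23.5), and 12.3-fold higher per raw read. miR398 came from a single locus on the minus strand at chr7:14598627-14598647 (IRGSP-1.0). miR528, a monocot family that acts on mRNAs of copper oxidases such as ascorbate oxidase, stood at 7 against 20 reads. Its ratio of 1.62 (0.659 to 4.54) was not called, but 2.70 per raw read was. miR397, which acts on laccase mRNAs, had 10 reads in CR and was not listed for TR. Of the 3 sequences in this list, 1 was thus called higher, 1 was not called and 1 was listed in CR alone. The median log2 ratio of the 2 compared was 1.79, beside -0.32 over all shared sequences.

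A predicted sequence related to miR397 was also higher in TR. For osa-miR12477 the study reported cleavage of an ascorbate oxidase and a monocopper oxidase transcript, from 5′ RACE and a dual-luciferase assay. This sequence had 63 reads in CR (9.15 RPM) against 295 in TR (24.3 RPM), which is a 2.66-fold higher level in TR (2.02 to 3.55). It has a single genomic match, on the minus strand at chr2:3280864-3280885. The first 21 of its bases are the whole of p6, which had 52 reads in TR and was not listed for CR. p6 lies in the hairpin of miR397 on chromosome 6 (hairpin at chr6:28489785-28489896), 3 bases downstream of the miR397 sequence listed for CR from the same hairpin. CR thus listed miR397 from this hairpin with 10 reads, and TR listed p6 from it with 52 reads. As p6 has 2 genomic matches and is contained in osa-miR12477, its reads cannot be assigned to either locus.

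The families that act on GRAS and NF-YA transcription factors differed among themselves. miR171, which acts on GRAS genes of the SCARECROW-LIKE type, had 15 reads in CR (2.18 RPM) against 58 in TR (4.78 RPM). It was 2.20-fold higher in TR (1.23 to 4.17) and 3.66-fold higher per raw read. miR479-miR171 had 32 reads in CR and was not listed for TR. In contrast p14, with the seed of miR479-miR171, had 3 reads in CR against 25 in TR (ratio 4.73, 1.44 to 24.5). The sequences come from different loci, miR479-miR171 from chr4:28482510-28482530 and p14 from chr7:15636749-15636770, and neither was listed for a shoot library. miR169, which acts on NF-YA subunits, had 11 against 21 reads, at a ratio of 1.08 (0.4998 to 2.49).

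miR166, which acts on HD-ZIP III genes of vascular and root patterning, held most of the listed reads. miR166 A had 14787 reads in CR against 23052 in TR, and miR166 B had 14659 and 11082. The 2 sequences were thus nearly equal in CR, at 1.01 reads of A per read of B, and stood at 2.08 in TR. This change in their proportion, 2.06-fold (1.997 to 2.13), does not depend on the denominator. Taken singly, miR166 A had a ratio of 0.885 (0.867 to 0.904), which lies above 1 under each of the 7 other denominators tried. miR166 B was called lower at 0.429 (0.419 to 0.440), a call kept under 1 of the 7, and had a ratio of 0.715 per raw read.

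The other miR166 sequences had few reads by comparison. miR166 C, which lies on the 5p arm and has the sequence of the most abundant miRNA* of miR166 A, had 94 against 101 reads, at a ratio of 0.610 (0.456 to 0.817). miR166 D is miR166 B without its last base and had 46 against 62 reads, at a ratio of 0.766 (0.514 to 1.15). miR166 E had 4 and 7 reads. None of the 3 was called, and per raw read their ratios were 1.02, 1.28 and 1.66. Over the 5 miR166 sequences the median log2 ratio was -0.39, beside -0.32 over all 46 shared sequences.

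miR156 and miR529, which act on SPL transcription factors of phase change, had ratios below 1 in all 3 of their sequences with the deposited RPM. miR156 A had 446 reads in CR (64.8 RPM) against 330 in TR (27.2 RPM) and was called lower at 0.420 (0.363 to 0.486), a call that was lost per raw read, at 0.7002, and kept under 1 of the 7 other denominators. miR156 B, which begins 1 base later, had 308 against 326 reads, at a ratio of 0.601 (0.513 to 0.705), which is 1.00 per raw read. Read against each other, miR156 B gained on miR156 A by 1.43-fold (1.15 to 1.78) in TR, whatever the denominator. miR529 had 24 against 33 reads, at a ratio of 0.781 (0.448 to 1.38) that was 1.30 per raw read. The median log2 ratio of the 3 was -0.73.

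In each of these pairs the A sequence has the earlier 5′ end. Relative to its partner it gained in miR166 and lost in miR156. For the other families with a pair of sequences in both libraries, the change in proportion had an interval that included 1. It was 0.907 for miR159 A over B (0.625 to 1.31), 1.60 for miR167 A over B (0.834 to 3.08), 1.27 for miR160 A over B (0.327 to 4.74) and 4.29 for miR396 A over B (0.712 to 46.0).

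The MYB and TCP regulators lay close together. miR159 A, which acts on GAMYB-like mRNAs, had 216 and 226 reads, miR159 B had 78 and 90, and the related miR319, which acts on TCP genes, had 268 and 308. Their ratios were 0.594 (0.491 to 0.719), 0.655 (0.479 to 0.899) and 0.653 (0.552 to 0.772). Per raw read they were 0.990, 1.09 and 1.09. None of the 3 was called (median log2 ratio -0.62). miR159 A stayed below 1 under all 7 other denominators, while miR159 B and miR319 lay above 1 under 3 of them.

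Among families of auxin signalling, ta-siRNAs and NAC genes, none of the 4 shared sequences was called in either direction (median log2 ratio -0.12). miR160 A and miR160 B, which act on auxin response factors, had 11 and 7 reads in CR and 24 and 12 in TR, with ratios of 1.24 (0.584 to 2.80) and 0.974 (0.353 to 2.92). miR167 A, also a regulator of auxin response factors, had 96 against 148 reads, at a ratio of 0.876 (0.673 to 1.14), and miR167 B had 26 against 25 reads, at a ratio of 0.546 (0.303 to 0.984). Per raw read, miR160 B stood at 1.62, miR167 A at 1.46 and miR167 B at 0.910. miR390, which starts the production of TAS3 ta-siRNAs, had 36 reads in CR together with 4 miRNA* reads, and was not listed for TR.

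The miR164 family, which acts on NAC genes, was listed by different strands. CR listed miR164 A, a 3p sequence, with 2 reads, and TR listed miR164 B and miR164 C, 5p sequences, with 6 reads each. miR164 A and miR164 C are opposite arms of the same hairpin at chr2:33143559-33143667. In TR the miR164 A sequence appeared with 1 read as the miRNA* of miR164 C, so the arm that headed the entry differed at 2 to 6 reads.

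Of the remaining conserved families, miR162 A, which acts on DCL1 mRNA, had 113 against 140 reads, at a ratio of 0.704 (0.545 to 0.910). miR396 A, which acts on growth regulating factors, had 33 and 48 reads, and miR396 B, which differs from it by G21T, had 6 and 2. Their ratios were 0.826 (0.519 to 1.33) and 0.189 (0.0187 to 1.06). miR394, which acts on an F-box gene, had 5 and 6 reads, at a ratio of 0.682 (0.173 to 2.82). Per raw read the ratio was 1.17 for miR162 A, 1.38 for miR396 A, 0.315 for miR396 B and 1.14 for miR394.

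miR1425, which acts on pentatricopeptide repeat genes in rice, followed the 2 main miR166 sequences in abundance. It had 901 reads in CR (130.8 RPM) against 1871 in TR (154.3 RPM), and its ratio of 1.18 (1.09 to 1.28) excluded 1 but did not reach the fold threshold under the deposited RPM or any of the 7 other denominators. miR162 B (4 reads), miR2118 (3 reads) and miR5827 (7 reads) were listed for CR alone.

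**Figure D2:**
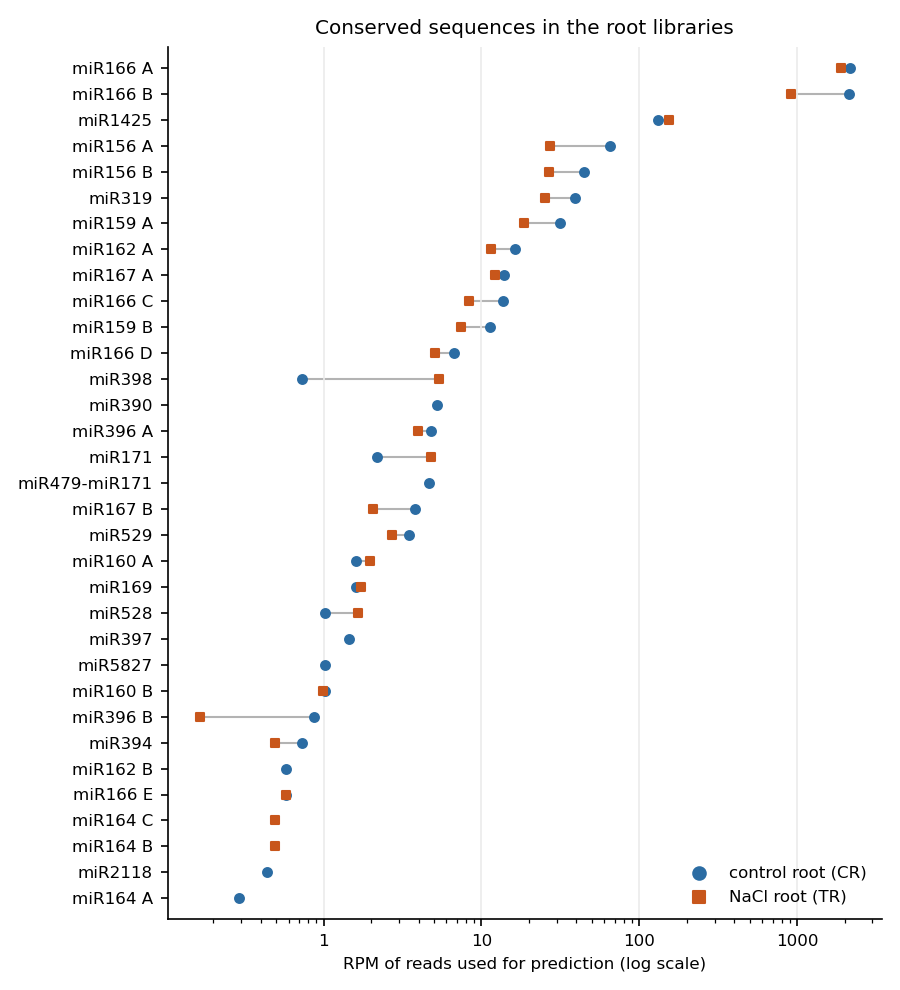
RPM of the 33 conserved sequences in CR (circles) and TR (squares) on a log axis, joined where both libraries list the sequence. The levels span from 0.165 RPM (miR396 B in TR) to 2147 RPM (miR166 A in CR), the widest gap toward TR is that of miR398, and 9 sequences have a point in 1 library only.

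miR166 made up most of the listed total. The sum over all listed sequences was 4828 RPM in CR against 3298 RPM in TR, at a ratio of 0.683 (0.673 to 0.693), against 1.14 per raw read. Without miR166 the ratio was 0.882 (0.846 to 0.919), and for the conserved sequences without miR166 it was 0.801 (0.762 to 0.842). Both turned per raw read, to 1.47 and 1.33. The predicted sequences together had 998 reads in CR against 1929 in TR, which is 3.001% and 4.82% of the listed reads, with a ratio of 1.10 (1.02 to 1.19). Of these reads, 421 in CR and 762 in TR belonged to sequences listed for that library alone. The sums thus do not cover the same sequences in both libraries. The order, with predicted sequences above the conserved ones in their ratio, does not depend on the denominator.

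Among the predicted sequences listed in both libraries, 10 of 22 had at least 10 reads in each. p1 was the most abundant, with 206 and 398 reads and a ratio of 1.10 (0.925 to 1.30). p3 had 58 against 76 reads, at a ratio of 0.744 (0.522 to 1.07) that was 1.24 per raw read, and p11 had 13 and 26 and a ratio of 1.14 (0.563 to 2.41). None of these was called.

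On the higher side were osa-miR12477 and p14, described above, and p9. p9 had 8 reads in CR against 33 in TR, for a ratio of 2.34 (1.06 to 5.87). p2, the miR166-like sequence, had 38 and 127 reads, and its ratio of 1.90 (1.31 to 2.80) fell short of the threshold by the deposited RPM but passed it under each of the 7 other denominators (2.15 to 3.16). It has a single genomic match on the plus strand at chr3:25295065-25295085, and its interval did not overlap that of miR166 A. osa-miR12481 had 15 against 39 reads, at a ratio of 1.48 (0.796 to 2.88) that passed under 4 of the 7.

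On the lower side were 4 sequences. osa-miR12479, at chr5:26275243-26275263 on the minus strand, had 57 reads in CR (8.28 RPM) against 40 in TR (3.30 RPM). This gave a ratio of 0.399 (0.259 to 0.608) that kept its call under 2 of the 7 other denominators. p12 had 25 and 18 reads (0.409, 0.210 to 0.780), with a call kept under 1. p13 with 25 and 20 reads (0.454, 0.239 to 0.852) and p15 with 23 and 20 reads (0.494, 0.257 to 0.940) kept it under none. Per raw read the ratios of these 4 were 0.664, 0.681, 0.757 and 0.823. p12, p13 and p15 had 9, 16 and 13 genomic matches, and among the sequences called higher p9 had 7 and miR171 had 5, so the reads of these cannot be assigned to 1 locus. The 10 shared predicted sequences not named so far had 2 to 10 reads and ratios of 0.284 to 1.14, none of them called.

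Most predicted sequences were listed in 1 root library. CR alone listed 69, of which 49 had 2 or 3 reads (71.0%), and TR alone listed 176, of which 138 had 2 or 3 reads (78.4%). The lists begin at 2 reads and TR was 1.76 times as deep in reads used. The part of depth in the longer TR list was not tested. Only 10 of the 69 and 12 of the 176 had at least 10 reads. The 5 most abundant in CR alone were p4 with 73 reads, p7 with 39, p8 with 35, p10 with 26 and p18 with 20. In TR alone they were p5 with 70 reads, p6 with 52, osa-miR12476 with 50, and p16 and p17 with 22 each.

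Some sequences listed for 1 library had a near copy in the other. The listed sequences were compared for exact overlaps of at least 16 bases with the 5′ ends at most 5 bases apart. In 16 pairs a sequence listed for CR alone overlapped a different sequence listed for TR alone. Their 5′ ends were 1 base apart in 9 pairs, the same in 4 and 3 bases apart in 3. In 14 of the 16 the pair also lay at an overlapping listed locus. The pairs with at least 10 reads on each side are shown with the shared bases in capitals, since they are listed as different sequences over nearly the same stretch.
p7 (CR): TTAATAGGGACAGTCGGGGGC
osa-miR12476 (TR): aTTAATAGGGACAGTCGGGGGC
osa-miR12475 (CR): ACCGAGGCGCGTCAATTGCTG
p5 (TR): tACCGAGGCGCGTCAATTGCTG
p22 (CR): CTTTGGCCTAGACTGAGAGCC
p16 (TR): aCTTTGGCCTAGACTGAGAGCC
p18 (CR): GGCAAGTCTGTCCTTGGCTAc
p17 (TR): GGCAAGTCTGTCCTTGGCTA
miR397 (CR): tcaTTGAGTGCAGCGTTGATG
p6 (TR): TTGAGTGCAGCGTTGATGaac
In the first 3 pairs the TR sequence begins 1 base earlier and is 22 nt long where the CR sequence is 21 nt long. In the fourth the CR sequence runs 1 base further at the 3′ end.

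The reads of these partners were close in some pairs. p7 had 39 reads in CR and osa-miR12476 had 50 in TR, p22 had 16 and p16 had 22, and p18 had 20 and p17 had 22. Taken as 1 unit, the RPM of the TR partner over the CR partner was 0.728 (0.470 to 1.14), 0.781 (0.392 to 1.59) and 0.625 (0.325 to 1.21), and each of these intervals included 1. Per raw read these values were 1.21, 1.30 and 1.04. It was 2.48 (1.43 to 4.58) for osa-miR12475 with 16 reads and p5 with 70, and 2.95 (1.48 to 6.52) for miR397 and p6. For p10 with 26 reads and p32 with 8, the widest difference in the other direction among pairs with at least 10 reads on 1 side, it was 0.175 (0.0684 to 0.398). Each of these ratios sets different sequences against each other.

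Such partners accounted for a larger share of reads than of sequences. Of the predicted sequences listed for CR alone, 14 of 69 had one (20.3%), with 34.4% of the reads of this class. Of those listed for TR alone, 16 of 176 had one (9.09%), with 35.8% of the reads. Among sequences with at least 10 reads, 5 of 10 in CR and 6 of 12 in TR had a shifted partner, with 44.2% and 72.8% of the reads.

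Counted by locus, the lists had more in common than by sequence. Of the predicted hairpin loci, 58 of 115 in CR (50.4%) and 58 of 235 in TR (24.7%) overlapped a locus of the other library on the same strand, whereas identical sequences were 24.2% of CR and 11.1% of TR. Of these 58, 43 carried the same mature sequence at the same start, and 15 a different one. For the conserved loci the overlap was 51 of 57 and 51 of 54.

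**Figure D3:**
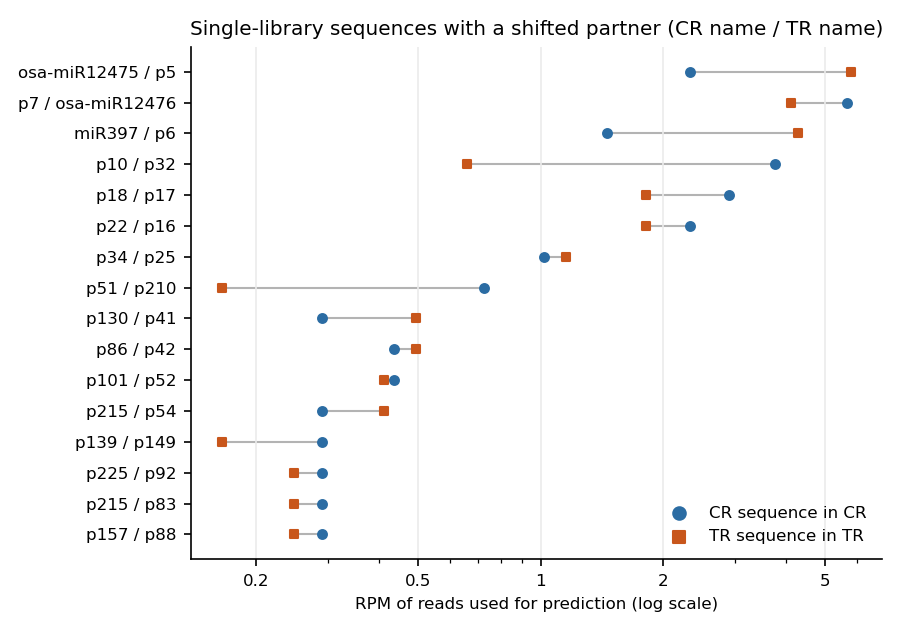
RPM of the 16 pairs in which a sequence listed for CR alone (circle, first name) overlapped one listed for TR alone (square, second name), on a log axis. Pairs such as p22 and p16 lie close together, while p10 and p32 lie apart in one direction and osa-miR12475 and p5 in the other.

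The predicted sequences were also compared by their hairpins, first base and length. Folding and length are conditions of being listed, so these features are not independent of the classes. The adjusted folding energy, in kcal/mol per 100 nt of hairpin, had a median of -52.2 in the 33 conserved sequences. It was -47.2 in the 22 predicted sequences of both libraries, -43.1 in the 69 of CR alone and -40.1 in the 176 of TR alone. The interquartile ranges overlapped, from -57.7 to -38.5 in the shared set and from -51.7 to -31.4 in that of TR alone.

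A U at the 5′ end, the base that AGO1 favours, was found in 84.8% of the conserved sequences. It was found in 72.7% of the predicted sequences of both libraries, 36.2% of those of CR alone and 35.2% of those of TR alone. The lengths differed as well. Sequences of 21 nt, the usual product of DICER-LIKE1, were 78.8% of the conserved set, 27.3% of the shared predicted set, 46.4% of CR alone and 26.1% of TR alone, and those of 22 nt were 11 of the 22 in the shared predicted set, 47.8% of CR alone and 61.4% of TR alone. The median of the highest read count was 24 in the shared predicted set and 2 in each single-library set, so abundance moved with the share of U and with the folding energy, and its part in them was not tested. The lengths did not follow it.

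**Figure D4:**
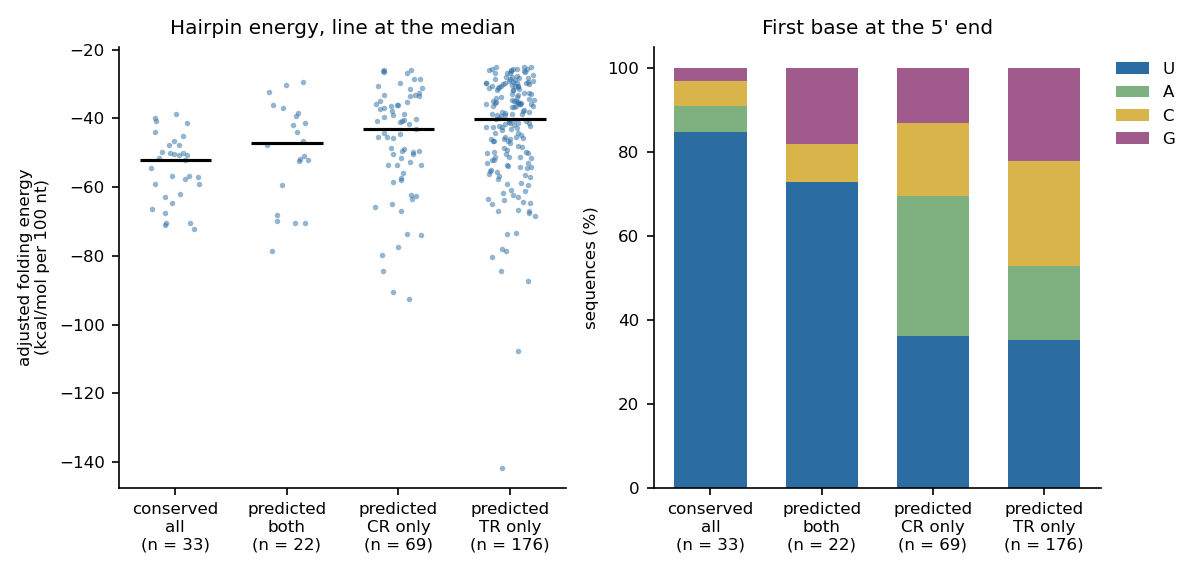
Adjusted folding energy of each hairpin (left, each point a sequence with the line at the median) and the base at the 5′ end in percent of sequences (right) for conserved sequences and for predicted sequences listed in both root libraries, in CR alone and in TR alone. The median energy goes from -52.2 to -40.1 and the share of U from 84.8% to 35.2% from the first class to the last.

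Reads of the miRNA*, a sign of a processed duplex, were compared last. The conserved sequences had 188 miRNA* reads beside 32260 mature reads in CR and 237 beside 38069 in TR, which is 0.579% (0.4997% to 0.668%) and 0.619% (0.543% to 0.702%) of both together. For the predicted sequences these were 34 and 93 reads, or 3.29% (2.29% to 4.57%) in CR and 4.60% (3.73% to 5.61%) in TR, with exact binomial intervals. The intervals of the 2 libraries overlapped in the conserved set and in the predicted set. The conserved share is low through the mature reads of miR166. Without miR166 it was 2.05% (1.56% to 2.66%) in CR and 2.44% (1.97% to 2.97%) in TR. The conserved miRNA* reads also include the miR166 C sequence (94 in CR, 101 in TR), which was counted as mature as well. In TR, miRNA* reads recorded for both p54 and p83 enter the predicted total for each. A miRNA* was recorded for 13 of 31 conserved sequences in CR and 17 of 26 in TR.

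By class, a miRNA* in at least 1 root library was recorded for 9 of the 22 predicted sequences listed in both (40.9%), 7 of the 69 of CR alone (10.1%) and 19 of the 176 of TR alone (10.8%). osa-miR12477 carried 4 miRNA* reads in CR at 63 mature reads and 14 in TR at 295, and p14 had 1 and 3. p3 went the other way, with 9 and 3 miRNA* reads at 58 and 76 mature reads. Of the sequences of TR alone, p24 had 12 miRNA* reads at 14 mature reads and p23 had 10 at 15, and p54 had 5 at 5. p177 had 15 at 2 and p83 had 7 at 3, so that in these last the miRNA* reads outnumbered those of the listed mature sequence. p83 and p54 overlap, and miRNA* sequences of 2 reads and 1 read were among those recorded for both. The order of the strands over their shared stretch therefore cannot be read from p83 alone.

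Of the 300 root sequences, 85 were also listed for a shoot library (28.3%). These were 24 of the 33 conserved sequences, 13 of the 22 predicted in both root libraries, 19 of the 69 of CR alone and 29 of the 176 of TR alone. In the 29 sequences listed in all 4 libraries, 2 were called higher in both tissues and 2 lower in both, and 2 were called higher in root and lower in shoot. Over all shared sequences, 10.9% were called higher and 13.0% lower in root, and 22.9% and 7.29% in shoot. Whether the joint counts depart from these shares was not tested. Per raw read 0 root sequences were called lower, and the shoot ratios were not checked against other denominators.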

How the data were processed

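Small RNA libraries of control and treated root were analysed, 1 each. According to the paper, the authors cleaned single-end Illumina reads (cutadapt, NGS QC Toolkit, UEA Small-RNA Workbench), removed other non-coding RNA, matched miRBase and mapped to the rice genome, which is IRGSP-1.0 per the chromosome names of the files. Versions of these cleaning tools, and the tool that predicted the listed hairpins, were not found in the sources used here. The deposited count is the reads of a mature sequence, repeated at each locus. The deposited RPM scales it to 1000000 reads that entered the prediction, and a deposited log2 column repeats it without a pseudocount. The authors also deposited hairpin G+C in percent, folding energies, lengths, genome matches and a fold p-value. A further 3 lines without content in each list were left out.

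Each distinct sequence was taken once, with its hairpin of lowest adjusted energy. Distinct miRNA* sequences were summed over loci. Depth was taken from the count and its RPM. Ratios had exact conditional intervals at 95%, and a call needed a fold of 2 and an interval excluding 1. With 1 library a group, no p-value was computed. Alternatives were 7 other denominators (raw, trimmed and NONCODE-unaligned reads from the paper's read summary, listed reads with and without miR166, the median of ratios, and TMM of edgeR), minimum counts of 5 and 10, a fold of 1.5, single genomic matches and a fold p-value of at most 0.01. The call rule was run on simulated counts that held counting error only, which is the spread its interval assumes. This does not test the calls against variation between libraries.

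The text names every conserved sequence of root, the predicted ones with at least 10 reads in both libraries, the 5 most abundant of each library alone, the study's named miRNAs listed in root, and predicted sequences with at least 5 miRNA* reads. Named outside this rule, after their values were seen, are p9 and p14, which were called, and the shifted partners p22 and p32, whose search was added later, as were p27, p37, p39 and p62, which resemble other sequences. The members and lists were chosen with earlier results of these data known. Python 3.11.15 (numpy 2.4.6, pandas 2.3.3, scipy 1.17.1, matplotlib 3.10.9) and R 4.3.3 with edgeR 4.0.16 were used. Gene annotation of the loci was not analysed here.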

Additional observations from a re-analysis of the deposited data

Results flagged for a closer look

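A pair of sequences moved in opposite directions in root and shoot. miR398 had a ratio of treated over control of 7.38 in root and 0.199 in shoot. osa-miR12477 had a ratio of 2.66 in root and 0.102 in shoot. Each was called higher in root and lower in shoot by the same rule. For osa-miR12477 the shoot value goes against the paper's other measurements. The paper reports a rise under NaCl in both root and shoot by Northern blot, and stronger in situ staining in treated Pokkali leaf. The difference between the tissues was not tested, since each condition has 1 library. In Pokkali root the blots rose for osa-miR12477 and osa-miR12481 and fell for osa-miR12479, the directions of the deposited ratios here. For osa-miR12475 the blot fell and for osa-miR12476 it rose, both reported in root only. With their shifted partners the ratios were 2.48 and 0.728, the second with an interval including 1. Shoot lists held 95 and 269 reads of osa-miR12475 and 138 and 56 of osa-miR12476 (control, treated).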

How the results depend on the processing

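With raw, trimmed or NONCODE-unaligned reads as denominator, the ratio of all listed reads turned from 0.683 to 1.14, 1.11 and 1.09. It was 0.850 with the median of ratios, 0.917 with TMM and 0.882 without miR166. In this order, then with the sum of listed reads, that sum without miR166, the median of ratios and TMM, the median log2 ratio of conserved sequences (-0.37) was 0.37, 0.34, 0.30, 0.18, -0.19, -0.055 and 0.054, and that of predicted sequences (-0.16) was 0.58, 0.55, 0.52, 0.39, 0.027, 0.16 and 0.27.

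Conserved sequences called higher (2 of 24) were 1 of 18 with at least 10 reads and 1 of 8 with a single genomic match. Those called lower (2 of 24) were 0 under each denominator other than the listed reads without miR166. They were 0 of 8 with a single match and 8 of 24 at 1.5-fold. Predicted sequences called higher (3 of 22) were 5 with raw, trimmed, NONCODE-unaligned or listed reads and 1 of 10 with at least 10 reads. Those called lower (4 of 22) were 2 with listed reads without miR166, 1 with the median of ratios and 0 under the other 5 denominators. With a single match they were 1 of 12. Families called higher (2 of 16) were 4 with raw, trimmed or NONCODE-unaligned reads, and the 1 called lower was 0 under all 7. Those called higher per raw read include miR164, with 2 and 12 reads, which has no sequence listed in both libraries. Each denominator changes all ratios by a common factor above 1 (1.13 to 1.67), so under them higher calls can only be gained and lower calls only lost.

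The predicted overlap rose from 24.2% of CR to 50.4% by locus and 47.6% with at least 10 reads, and from 11.1% of TR to 24.7% and 41.7%. Counted at the locus with most miRNA* reads, the conserved miRNA* share was 0.497% in CR and 0.499% in TR. Hairpin properties moved by less than the spread among sequences with the mean over loci or a single genomic match. A minimum of 5 reads moved no count of calls by more than 1.5 times. A fold p-value of at most 0.01 removed none of the 24 conserved and 22 predicted shared sequences. It therefore could not change a count and is no check of the calls. No paired analysis was possible because each group holds 1 library. Of the shared sequences with under 10 reads in CR, miR398, p14 and p9 were called, and the others have intervals several-fold wide.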

Other observations

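Some sequences listed as mature in 1 root library were recorded as miRNA* in the other. The predicted p39 had 6 reads as a mature sequence in CR, and its first 21 bases had 5 reads as a miRNA* of p23 in TR, where p23 had 15 reads. The miR166 C sequence was counted with the same reads (94 in CR, 101 in TR) as a mature entry and as the miRNA* of miR166 A.

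The 300 sequences had 273 distinct seeds. A seed was shared by more than 1 sequence in 24 cases, with 51 sequences in all and at most 3 to a seed. Among predicted sequences close to conserved ones, p37 differed from a miR171 sequence by 1 base over 21 and had 7 reads in TR, p62 differed from miR159 B by 2 bases over 20 and had 4 reads in CR, and p27, with 11 reads in CR, was a miR1320 sequence shifted by 1 base.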
